A study of Mus musculus with 2 samples.

Results

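Embryos grown from 1 blastomere of the 8-cell stage (8CB) were compared with embryos grown from a whole zygote (1C). They were 12 mouse pseudoblastocysts of the same library pool, 6 of each, out of 24 single embryos in the 2 library pools of the series. A pseudoblastocyst is an embryo with a cavity, taken without checking for an inner cell mass (ICM), so vesicles of trophoblast only may be among them. The 12 embryos were chosen by stage alone, from the sample labels. The gene lists described below were written with earlier results of these data known. Eggs came from B6D2F1 females and sperm from ICR males, joined by in vitro fertilization. 1C embryos lost their zona pellucida as zygotes at 5 h postinsemination (hpi) and were never divided. 8CB embryos began as blastomeres separated at 48 hpi, and both groups were cultured singly in wells until 96 hpi. Both groups therefore lacked a zona, and no embryo with its zona was among these 12. The labels do not say which 8CB embryos were sisters from the same parent embryo, so p-values measure the spread among these embryos only. 1C and 8CB embryos carried different barcodes within the pool.

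Around the 8-cell stage the blastomeres of a mouse embryo begin to compact and polarize, and cell fate is set over the following divisions by position, polarity and Hippo signaling. Outer cells become trophectoderm, the epithelium that pumps fluid into the cavity. Inner cells become the ICM, which later sorts into epiblast and primitive endoderm. An isolated blastomere reaches the time of cavitation with far fewer cells than a whole embryo. Fewer cells of a type and less RNA per cell cannot be told apart in RNA from whole embryos.

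Each embryo was profiled by CEL-Seq2, which captures the 3′ end of polyadenylated RNA and tags each molecule with a unique molecular identifier (UMI). Total UMIs ranged from 123594 to 368348 in 1C embryos (median 244312) and from 70941 to 356749 in 8CB embryos (median 313283), and the means did not differ past the spread (two-sided exact permutation test over 924 divisions, p = 0.987, adjusted p = 0.987 over 3 depth comparisons). Genes with at least 1 UMI numbered 8473 to 11499 in 1C and 6905 to 10944 in 8CB embryos (exact p = 0.682, adjusted p = 0.987). After thinning every embryo to the smallest total, that of 8CB replicate 6, they numbered 7235 to 7742 and 6905 to 7564 (exact p = 0.110, adjusted p = 0.331). Levels are given below as CPM, which are UMIs per 1000000 UMIs counted in the same embryo.

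Markers of the blastocyst lineages were unevenly represented. Of 27 trophectoderm markers 26 had at least 1 UMI and 10 were abundant enough to test. Some defining genes were scarce over the 12 embryos, with 52 UMIs of Cdx2, 15 of Krt8 and 1 of Elf5, while Gata3 had 668. Of 26 epiblast and ICM markers 13 were tested, yet Pou5f1 had 13 UMIs and Fgf4 1. Of 22 primitive endoderm markers 7 were tested, Gata6 had 1494 UMIs, Sox17 had 6, and Sox7 and Foxa2 had 0. Of 18 markers of cumulus and granulosa cells 4 had any UMI, and their summed level was 24 to 57 CPM in 1C and 9.34 to 45.6 in 8CB. Of 14 markers of blood and immune cells 5 had any UMI, with sums of 5.43 to 17.3 and 0 to 28.2 CPM. Fshr, Cyp19a1, Hba-a1 and Lyz2, defining genes of these cells, were at 0 in every embryo. Other members were found: Star had 66 UMIs in 11 embryos and Amhr2 32 in 8, both of the cumulus and granulosa list. Cd68, of the blood and immune list, had 14 UMIs in 7 embryos.

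Of 4231 genes with enough UMIs to test, edgeR called 0 between 8CB and 1C embryos at an adjusted p below 0.1, which is 0.0% of them. The lowest adjusted p, 0.364, was shared by 16 genes. At an unadjusted p below 0.05 stood 319 genes (7.54%), of which 114 (2.69%) were higher and 205 (4.85%) lower in 8CB embryos. Over all tested genes the log2 fold change had a median of 0.01, with 51.3% above 0 and a median standard error of 0.40. DESeq2, on the same genes, called 20, of which 5 (0.118%) were higher and 15 (0.355%) lower. Every 8CB embryo lay above every 1C embryo in 9 genes (0.213% of those tested) and below every 1C embryo in 17 (0.402%). In what follows "higher" and "lower" refer to an unadjusted p below 0.05 unless another measure is named, a fold change is log2 of 8CB over 1C, and no single gene passed the adjusted threshold of edgeR.

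**Figure D1:**
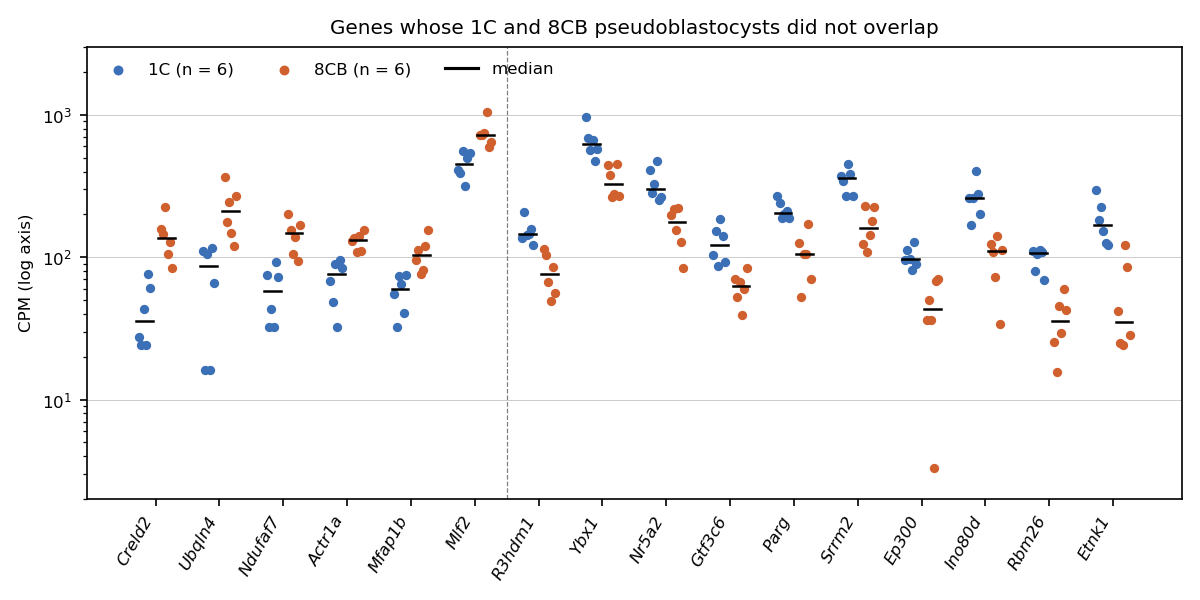
CPM on a log axis in each of 6 1C and 6 8CB embryos for 16 genes, with the median of each group as a bar. In the 6 genes left of the dashed line every 8CB embryo lay above every 1C embryo, and in the 10 genes right of it every 8CB embryo lay below.

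Among genes with no overlap and a mean of at least 50 CPM, 6 were higher in 8CB embryos. Creld2 encodes an endoplasmic reticulum (ER) protein that is induced when unfolded proteins accumulate there, and lies on chromosome 15 of GRCm38 from 88819646 to 88826681. Its level was 24 to 75.8 CPM in 1C (median 35.4) and 84.6 to 225 in 8CB (median 137). The highest 1C embryo, replicate 5, came close to the lowest 8CB embryo, replicate 6, and the fold change was 1.69 (standard error 0.37, edgeR unadjusted p = 0.00019, adjusted p = 0.364). Ubqln4, a ubiquilin that carries ubiquitinated proteins to the proteasome (chromosome 3, 88553758 to 88569725), had 16 to 117 CPM in 1C (median 86.1) and 119 to 364 in 8CB (median 212), a fold change of 1.58 (standard error 0.42). 1C replicates 2 and 4, among the shallowest, were far below the other embryos. Ndufaf7, needed to assemble respiratory complex I (chromosome 17, 78937135 to 78948052), had 32.1 to 93.3 CPM in 1C (median 57.8) and 93.8 to 202 in 8CB (median 147), and its groups nearly touched (fold change 1.29, standard error 0.35).

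The other 3 genes of this kind had smaller fold changes. Actr1a, the actin-related protein of the dynactin complex, had 32.4 to 96.2 CPM in 1C (median 76.2) and 109 to 155 in 8CB (median 133), a fold change of 0.87 (standard error 0.31). Mfap1b, which encodes a spliceosome protein, had 32.1 to 75 CPM in 1C (median 59.8) and 75.9 to 155 in 8CB (median 104), a fold change of 0.86 (standard error 0.34). It has a near copy, Mfap1a, with which reads could have been divided in counting, and there the groups overlapped (0.45, standard error 0.49, and 0.03 to 0.80 with an embryo left out). Mlf2 was the most abundant of the 6, at 316 to 554 CPM in 1C (median 454) and 597 to 1045 in 8CB (median 723), with a fold change of 0.75 (standard error 0.23).

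Below every 1C embryo stood 12 genes by the same rule. Etnk1, the kinase that starts phosphatidylethanolamine synthesis from ethanolamine (chromosome 6, 143167221 to 143232307), had 121 to 295 CPM in 1C (median 169) and 24.3 to 121 in 8CB (median 35.1). 8CB replicate 4 nearly reached the lowest 1C embryo, and the fold change was -1.70 (standard error 0.43, edgeR unadjusted p = 0.000781, adjusted p = 0.364). Rbm26, an RNA-binding protein (chromosome 14, 105106751 to 105177327), had 69.3 to 113 CPM in 1C (median 107) and 15.6 to 59.7 in 8CB (median 35.9), a fold change of -1.46 (standard error 0.38). It overlaps Gm17066 on the same strand, which had 279 UMIs over the 12 embryos.

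Ino80d, a subunit of the INO80 nucleosome remodeler (chromosome 1, 62958418 to 63114667), had 168 to 405 CPM in 1C (median 261) and 34.1 to 141 in 8CB (median 111), a fold change of -1.35 (standard error 0.33). Ep300, a histone acetyltransferase and coactivator (chromosome 15, 81585351 to 81652077), had 80.9 to 128 CPM in 1C (median 96.9) and 3.28 to 70.5 in 8CB (median 43.1). 8CB replicate 4 was far below the rest, and the fold change was -1.29 (standard error 0.44) with it and -1.0 without it. Gtf3c6, a subunit of the RNA polymerase III factor TFIIIC, had 86.9 to 186 CPM in 1C (median 121) and 39.3 to 84.6 in 8CB (median 63.3), a fold change of -1.0 (standard error 0.33). Parg, the enzyme that removes poly(ADP-ribose), had 190 to 268 CPM in 1C (median 206) and 52.9 to 171 in 8CB (median 106), a fold change of -1.0 (standard error 0.30).

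Nr5a2, an orphan nuclear receptor active in the early embryo and epiblast, lies on chromosome 1 from 136842571 to 136960448. Its level was 251 to 477 CPM in 1C (median 303) and 84.6 to 223 in 8CB (median 177), a fold change of -0.91 (standard error 0.28). Srrm2, a scaffold of nuclear speckles and splicing (chromosome 17, 23790662 to 23824741), had 268 to 453 CPM in 1C (median 358) and 109 to 230 in 8CB (median 162), a fold change of -1.04 (standard error 0.27). Elob on the opposite strand had 1550 UMIs, and the strand setting of the counting is not given in the sources used here. Ybx1, a cold shock protein that binds mRNA, had 475 to 967 CPM in 1C (median 622) and 264 to 452 in 8CB (median 328), a fold change of -0.88 (standard error 0.25). R3hdm1 had 121 to 208 CPM in 1C (median 145) and 49.1 to 115 in 8CB (median 76.1), a fold change of -0.88 (standard error 0.30).

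The 2 remaining genes of this rule were Haus2, of the augmin complex of the spindle (-0.80, standard error 0.33), and Dnajc21, a cochaperone of ribosome assembly (-0.56, standard error 0.23). Lrrc57, opposite Haus2, had 70 UMIs. Further non-overlapping genes, at lower levels or without an unadjusted p below 0.05, included Cltb (1.82), Gbf1 (1.43) and Rpa1 (1.17) above 1C, and Timm44 (-1.36), Atxn2 (-0.61) and Ahctf1 (-0.48) below.

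DESeq2's 20 calls held 8 of the genes described above: Creld2, Ubqln4, Ndufaf7, Etnk1, Rbm26, Ino80d, Srrm2 and Ybx1. Others among them are named here after their values were seen. Srm, spermidine synthase, had 154 to 394 CPM in 1C (median 269) and 296 to 893 in 8CB (median 675), with overlap only at 8CB replicate 6 (fold change 1.27, standard error 0.30 in edgeR). Mdn1, the large ATPase that removes assembly factors from the pre-60S ribosome, had 254 to 688 CPM in 1C (median 474) and 146 to 283 in 8CB (median 196), with overlap only between 1C replicate 6 and 8CB replicate 2 (-1.26, standard error 0.28). Rock2, a kinase that drives actomyosin contraction, had 193 to 528 CPM in 1C (median 385) and 136 to 286 in 8CB (median 148), with 1C replicate 6 inside the 8CB range (-1.12, standard error 0.29). Tpp2, a large cytosolic peptidase, had 66.4 to 247 CPM in 1C (median 197) and 34.1 to 98.1 in 8CB (median 55.3), again with 1C replicate 6 inside the 8CB range (-1.47, standard error 0.36).

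**Figure D2:**
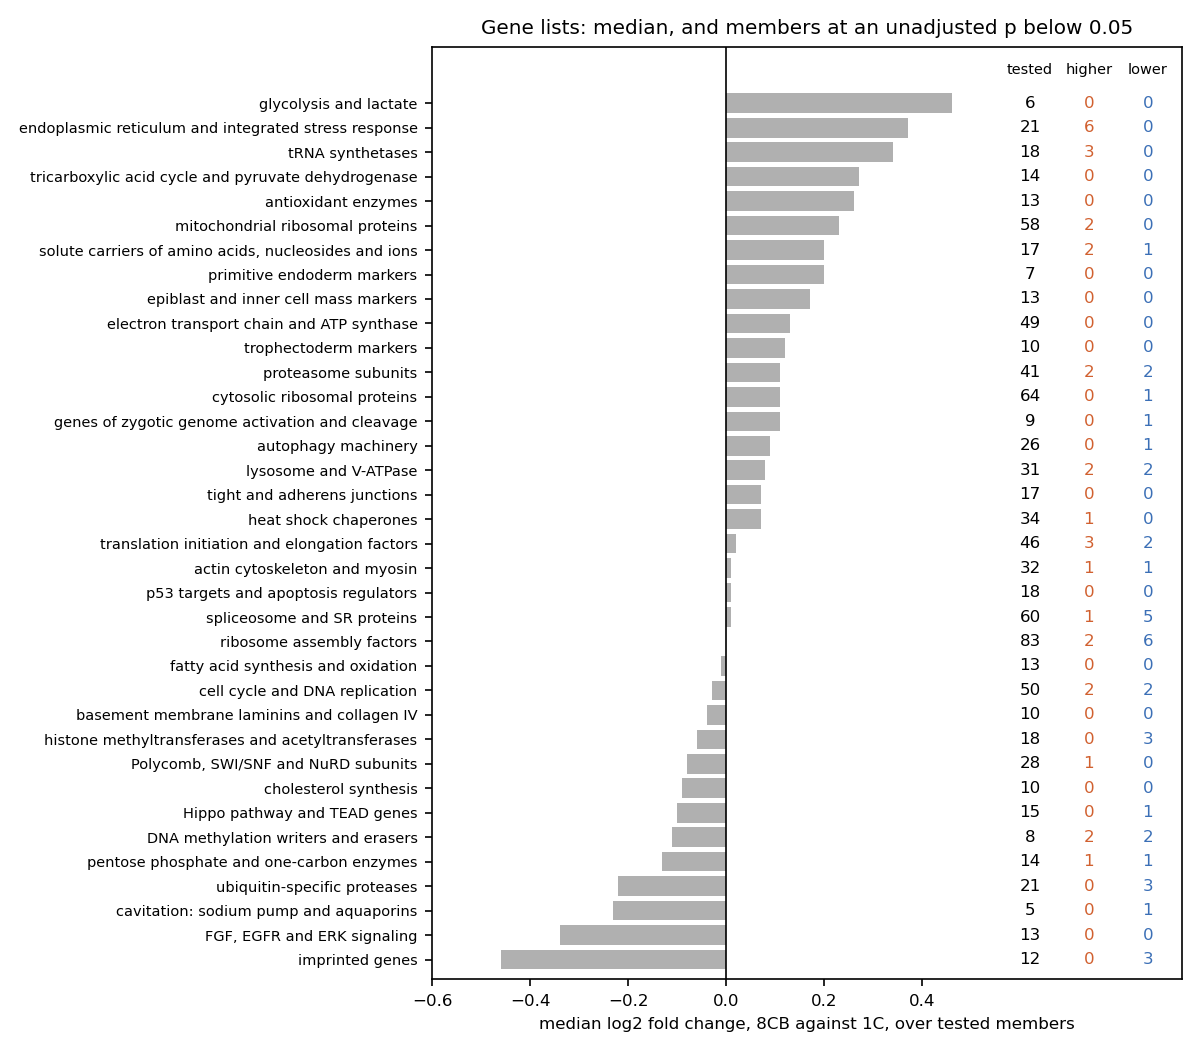
Median log2 fold change over the tested members of each of 36 gene lists with at least 5 tested genes (bars), with the numbers tested, higher and lower at an unadjusted p below 0.05 at right. Medians run from -0.46 to 0.46, and the ER and integrated stress list holds 6 higher and 0 lower of 21.

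Gene groups were described by counts and medians over 42 lists of pathways, complexes and cell types, 36 of which had at least 5 tested members. The list with the most higher members was that of the ER unfolded protein and integrated stress responses. The ER answers an excess of unfolded protein through ATF6 and XBP1, which act on chaperone genes, and through the kinase PERK, which slows translation and raises ATF4. ATF4 acts on genes of amino acid synthesis, transport and tRNA charging, and also answers a lack of amino acids. Of 37 members, 21 were tested, 6 (28.6%) were higher and 0 lower, against 2.69% and 4.85% of all tested genes. The median fold change was 0.37, with 15 of 21 above 0, and none was called by edgeR in the main fit. Creld2 was called by DESeq2 (DESeq2 adjusted p = 0.0219). Without a filter on low counts edgeR called Creld2 (edgeR adjusted p = 0.0437) and Pdia6 (edgeR adjusted p = 9.55e-06).

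Promoters of both arms carry known elements, and 4 are shown because these elements lie in them and their genes are described next. An ER stress response element, bound by NF-Y with ATF6 or XBP1, was searched as CCAAT and CCACG with 9 bases between them. A C/EBP-ATF response element, bound by ATF4 dimers, was searched as TGATGNAA. Both strands of the 250 bases before each RefSeq gene start were read, and of 32851 such windows 37 (0.113%) held the former and 1134 (3.45%) the latter. Of 21 tested stress genes 18 were matched by symbol, and 6 held the ER element (Creld2, Pdia6, Hspa5, Hsp90b1, Calr and Canx) and 1 the ATF element (Asns). Of 18 tested tRNA synthetase genes 12 were matched, and 3 held the ATF element (Aars, Gars and Tars). Sequences are from RefSeq on build GRCm38.p6, 150 bases in the direction of the gene, with the fixed letters of the element in capitals. They cover chr15:88819496-88819645 (+ strand) for Creld2, chr12:17266395-17266544 (+) for Pdia6, chr6:55037851-55038000 (+) for Gars and chr15:11399659-11399808 (-) for Tars. They end just before the RefSeq start, except in Pdia6, where they end just before the start in the deposited table (17266545), which lies upstream of the RefSeq start (17266589). In Creld2, Gars and Tars the element reads on the strand opposite to the gene.
Creld2: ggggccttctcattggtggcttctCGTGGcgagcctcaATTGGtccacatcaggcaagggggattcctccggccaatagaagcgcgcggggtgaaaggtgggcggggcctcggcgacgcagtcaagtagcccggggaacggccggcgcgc
Pdia6: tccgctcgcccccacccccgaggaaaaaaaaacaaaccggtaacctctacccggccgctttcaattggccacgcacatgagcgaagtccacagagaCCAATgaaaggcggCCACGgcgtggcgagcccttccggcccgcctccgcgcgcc
Gars: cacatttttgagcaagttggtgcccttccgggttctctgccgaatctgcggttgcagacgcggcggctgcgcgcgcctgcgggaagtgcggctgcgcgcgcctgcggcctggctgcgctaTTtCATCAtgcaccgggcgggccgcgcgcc
Tars: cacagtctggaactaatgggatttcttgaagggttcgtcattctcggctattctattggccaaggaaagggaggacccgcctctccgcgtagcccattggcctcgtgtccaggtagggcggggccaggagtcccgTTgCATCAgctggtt

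Pdia6, a protein disulfide isomerase of the ER, was the most abundant tested gene of the list (chromosome 12, 17266545 to 17284770). Its level was 172, 906, 505, 1286, 1178 and 1478 CPM in 1C replicates 1 to 6 and 1755, 3135, 7581, 2787, 435 and 874 CPM in 8CB replicates 1 to 6. The 4 deeper 8CB embryos lay above every 1C embryo, while 8CB replicates 5 and 6, which had the smallest totals among 8CB embryos, lay within the 1C range. The fold change was 1.62 (standard error 0.54, edgeR unadjusted p = 0.00755, adjusted p = 0.45) and 1.0 without 8CB replicate 3. Sdf2l1, which works with the chaperone BiP, had 16 to 48 CPM in 1C (median 36.5) and 0 to 207 in 8CB (median 109), a fold change of 1.59 (standard error 0.55). The pattern was that of Pdia6: 8CB replicates 5 and 6 lay within or below the 1C range and the other 4 above it. Manf, a secreted ER protein that protects cells under stress, had 281 to 906 CPM in 1C (median 432) and 401 to 1795 in 8CB (median 963), with 8CB replicates 5 and 6 again the lowest of their group (0.91, standard error 0.38). Dcaf1, which overlaps Manf on the opposite strand, had 197 UMIs.

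The other genes that carry the ER element were neither higher nor lower, and their direction depended on the embryos included. Hspa5, the chaperone BiP itself, had 158 to 1934 CPM in 1C (median 632) and 507 to 1792 in 8CB (median 720), a fold change of 0.22 (standard error 0.42). Calr, the lectin chaperone calreticulin, had 172 to 1901 CPM in 1C (median 344) and 196 to 778 in 8CB (median 308), a fold change of -0.69 (standard error 0.50). Hsp90b1, the ER form of Hsp90, had 54.9 to 809 CPM in 1C (median 179) and 86.9 to 304 in 8CB (median 150), a fold change of -0.67 (standard error 0.49). Canx, calnexin, had 281 to 566 CPM in 1C (median 373) and 239 to 529 in 8CB (median 340), a fold change of -0.09 (standard error 0.27). 1C replicate 4 was the highest of the 12 embryos in all 4 of these genes. Over the fits that left out an embryo the fold change ran from -0.10 to 0.70 in Hspa5, from -1.05 to 0.03 in Calr, from -0.96 to 0.01 in Hsp90b1 and from -0.21 to 0.03 in Canx. A further fit kept only the embryos with at least 10 UMIs of Xist, the RNA of the inactive X chromosome, which were 2 1C and 5 8CB. There the fold change was 0.87 in Hspa5, 0.69 in Calr, 0.43 in Hsp90b1 and 0.08 in Canx. Without 1C replicate 4 the median of the whole list was 0.65, and 7 of 21 members were higher.

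On the ATF4 side, Atf4 itself had 467 to 900 CPM in 1C (median 531) and 311 to 1202 in 8CB (median 644), a fold change of 0.34 (standard error 0.30). It had 0.09 with Xist detection as a term, 0.03 among embryos with at least 10 Xist UMIs and 0.14 to 0.52 with an embryo left out. Asns, asparagine synthetase and a known ATF4 target, had 0 to 76 CPM in 1C (median 24.8) and 39.2 to 254 in 8CB (median 52), a fold change of 1.68 (standard error 0.62), and it rests on few UMIs, 49 in 1C and 135 in 8CB. Ddit4, an inhibitor of mTORC1, had 8.02 to 56.6 CPM in 1C (median 17.5) and 16.8 to 95 in 8CB (median 49.3), a fold change of 1.26 (standard error 0.53), on 29 and 75 UMIs. In both genes the groups overlapped. The other 15 tested genes of the stress list were neither higher nor lower. Sesn2, a sestrin that restrains mTORC1, had 24 to 170 CPM in 1C (median 120) and 67.3 to 240 in 8CB (median 133), a fold change of 0.48 (standard error 0.41). Hyou1, an ER chaperone, had a fold change of 0.47 (standard error 0.39), and 0.20 with Xist detection as a term. Dnajb9, an ER cochaperone of BiP, had 0.37 (standard error 0.37), and -0.27 with Xist detection as a term. With an embryo left out Sesn2 ran from 0.25 to 0.65, Hyou1 from 0.18 to 0.68 and Dnajb9 from 0.22 to 0.58. Trib3 had 17 UMIs in 1C and 18 in 8CB, Atf5 24 and 19 and Xbp1 30 and 38, and these 3 were not tested. Ddit3 was listed at 0 UMIs in every embryo, and Mars, which overlaps it on the opposite strand, had 173.

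Aminoacyl-tRNA synthetases, which load amino acids onto tRNA and are in part ATF4 targets, had a median fold change of 0.34 over 18 tested genes. Of these 3 (16.7%) were higher, 0 were lower and 13 lay above 0, against 2.69% higher, 4.85% lower and 51.3% above 0 over all tested genes. Nars, for asparagine, had 213 to 513 CPM in 1C (median 367) and 353 to 725 in 8CB (median 676), a fold change of 0.74 (standard error 0.28). Gars, for glycine, had 369 to 550 CPM in 1C (median 400) and 387 to 959 in 8CB (median 622), a fold change of 0.67 (standard error 0.26). Tars, for threonine, had 146 to 385 CPM in 1C (median 224) and 247 to 522 in 8CB (median 390), a fold change of 0.70 (standard error 0.28). The groups overlapped in all 3. Aars, which also carries the ATF element, had 73.3 to 138 CPM in 1C (median 79) and 37.4 to 106 in 8CB (median 61.9), a fold change of -0.44 (standard error 0.35, and -0.67 to -0.30 with an embryo left out). Related enzymes were Shmt2 of mitochondrial one-carbon metabolism, at 69.3 to 218 CPM in 1C and 84.6 to 392 in 8CB (0.95, standard error 0.34), and Psat1 of serine synthesis, at 591 to 2693 CPM in 1C and 959 to 3603 in 8CB (0.62, standard error 0.33, and 0.03 with Xist detection as a term). The pentose phosphate and one-carbon list to which they belong had a median of -0.13 over 14 genes, with Shmt2 higher and Mat2a lower (-0.68, standard error 0.29).

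**Figure D3:**
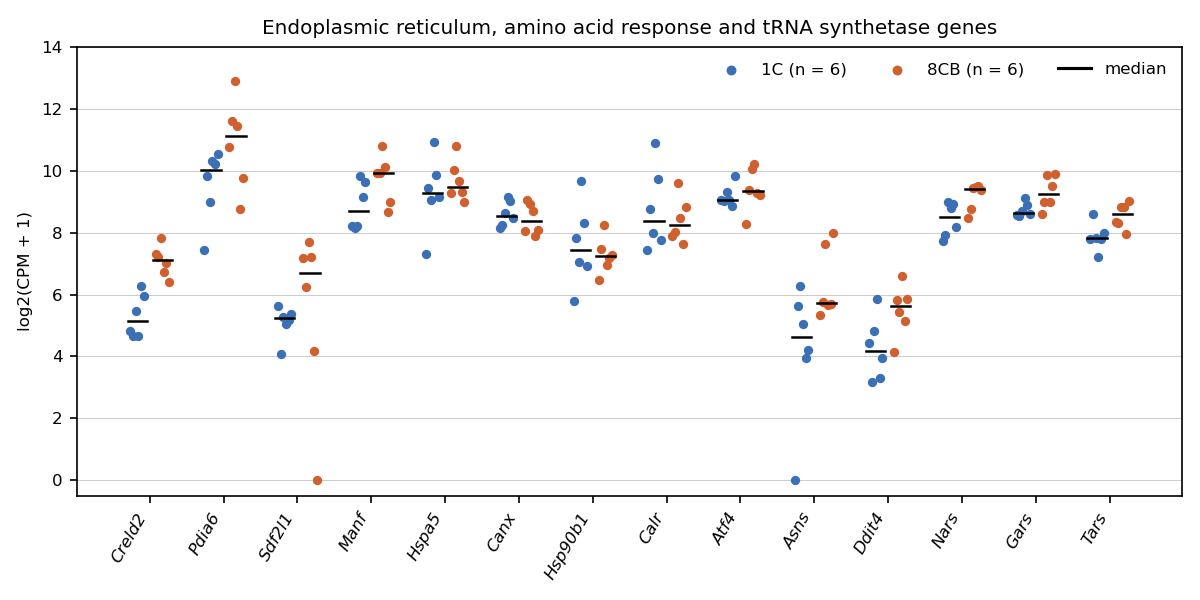
Levels as log2(CPM + 1) in each of 6 1C and 6 8CB embryos for 14 genes of the ER, the amino acid response and tRNA charging, with group medians as bars. Creld2 shows no overlap, Pdia6 and Sdf2l1 have 4 8CB embryos above the 1C range, and Hspa5, Canx, Hsp90b1 and Calr have their highest value in a 1C embryo.

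Both lists rested on some embryos more than others. Without 8CB replicate 3, the highest embryo in Creld2, Pdia6, Sdf2l1 and Manf, the stress list had a median of 0.18 with 3 members higher. Over the 12 fits that left out an embryo its median ran from 0.18 to 0.65, and that of the tRNA synthetases from 0.24 to 0.39.

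Lists of energy metabolism had medians above 0, with no member higher or lower in those given here. All 6 tested genes of glycolysis and lactate had a fold change above 0 (median 0.46), but 0 were higher. Aldoa, aldolase, had 54.9 to 248 CPM in 1C and 103 to 268 in 8CB (0.57, standard error 0.36, and 0.42 to 0.86 with an embryo left out), and Fam57b on the opposite strand had 78 UMIs. Of 49 subunits of the electron transport chain and ATP synthase 37 lay above 0, with a median of 0.13, 0 higher and 0 lower. Over all tested genes 51.3% lay above 0, and the 848 genes with the shortest annotated length had a median of 0.12 with 522 above 0. That median is close to the median of this list, while the share above 0 was larger in the list. The tricarboxylic acid cycle had a median of 0.27 over 14 genes, with 0 higher and 0 lower. Pdha1, of pyruvate dehydrogenase, is X-linked and had 243 to 950 CPM in 1C and 381 to 1123 in 8CB (0.65, standard error 0.35, and 0.05 with Xist detection as a term). Antioxidant enzymes had a median of 0.26 over 13 genes, with 0 and 0.

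Ribosomal proteins of the mitochondria had a median of 0.23 over 58 genes, with 2 (3.45%) higher and 0 lower. Those were Mrpl34, at 736 to 2330.2 CPM in 1C and 1889 to 3189.6 in 8CB (0.58, standard error 0.26), and Mrpl36, at 80.9 to 232 CPM in 1C and 154 to 380 in 8CB (0.64, standard error 0.30). Ndufs6, opposite Mrpl36, had 224 UMIs. Cytosolic ribosomal proteins had a median of 0.11 over 64 genes, with 0 higher and 1 lower. Rpl4, the gene with the most UMIs in these embryos, had 22137 to 30431 CPM in 1C and 29266 to 36868 in 8CB, with overlap (0.35, standard error 0.19). These shares were near those of all tested genes.

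Lists of ribosome assembly and splicing had medians close to 0, and their shares of lower and higher members were near the 4.85% and 2.69% of all tested genes. Of 83 assembly factors 6 (7.23%) were lower and 2 (2.41%) higher, with a median of 0.00. Beside Mdn1, the lower genes were Nop58, Wdr43, Wdr75, Gnl2 (-0.87, and -1.12 to -0.47 with an embryo left out) and Imp4. Nop58, a core protein of box C/D small nucleolar ribonucleoproteins, had 796 to 2015 CPM in 1C (median 1346) and 526 to 1128 in 8CB (median 685), a fold change of -0.88 (standard error 0.27). Wdr43, of the small subunit processome, had 534 to 1102 CPM in 1C (median 837) and 325 to 750 in 8CB (median 468), a fold change of -0.80 (standard error 0.27). Rrp9 (0.83, standard error 0.27) and Utp14a (0.85, standard error 0.37), also of small subunit assembly, were the higher genes.

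Of 60 spliceosome and SR protein genes 5 (8.33%) were lower and 1 (1.67%) higher, with a median of 0.01. Beside Srrm2 the lower genes were Cdc5l, Prpf4, Srsf11 and Srrm1. Cdc5l, a core factor of the active spliceosome, had 621 to 1434 CPM in 1C (median 955) and 343 to 776 in 8CB (median 439), a fold change of -0.97 (standard error 0.28). Srrm1, a coactivator of splicing, had 306 to 1028 CPM in 1C (median 632) and 216 to 747 in 8CB (median 278), with overlap at 8CB replicates 5 and 6 (-0.75, standard error 0.34). Phf5a, a small subunit of SF3B, was the higher gene (0.55, standard error 0.25).

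Among 18 histone methyltransferases and acetyltransferases 3 (16.7%) were lower and 0 higher, with a median of -0.06, against 4.85% lower over all tested genes. They were Ep300 (14273 bases), Nsd1 (12784 bases) and Kmt2c (20291 bases), all among the fifth of tested genes with the longest transcripts, of which 10.8% were lower. Nsd1, which methylates histone H3 at lysine 36, had 144 to 307 CPM in 1C (median 202) and 39.3 to 254 in 8CB (median 76.1), and 8CB replicate 6 lay far above the other 8CB embryos (-1.11, standard error 0.38). Kmt2c, which methylates histone H3 at enhancers, had 425 to 761 CPM in 1C (median 628) and 264 to 631 in 8CB (median 321), a fold change of -0.65 (standard error 0.27). Polycomb, SWI/SNF and NuRD subunits had a median of -0.08 over 28 genes, with 1 higher, the deacetylase Hdac2 (0.72, standard error 0.31), and 0 lower.

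The DNA methylation list had 2 higher and 2 lower of 8 tested (25.0% each), against 2.69% and 4.85% of all tested genes, with a median of -0.11. The de novo methyltransferase Dnmt3a had 205 to 518 CPM in 1C (median 436) and 157 to 294 in 8CB (median 227), a fold change of -0.79 (standard error 0.28). Tet1, which oxidizes methylcytosine, had 118 to 397 CPM in 1C (median 264) and 93.4 to 282 in 8CB (median 141), a fold change of -0.85 (standard error 0.33). In the other direction, Dnmt3l, a cofactor of de novo methylation, had 24.3 to 95.2 CPM in 1C (median 86.4) and 88.4 to 145 in 8CB (median 131), with only 8CB replicate 4 inside the 1C range (0.78, standard error 0.33). Trim28, the corepressor that protects imprints, had 2767 to 5149 CPM in 1C (median 4067) and 3969 to 6484 in 8CB (median 5471), a fold change of 0.46 (standard error 0.21).

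Imprinted genes had the lowest median of the 36 lists, -0.46 over 12 tested genes. Of these 3 (25.0%) were lower and 0 higher, against 4.85% and 2.69% of all tested genes. The 3 were Kcnq1ot1 (84395 bases), Igf2r (9438 bases) and Jade1 (8492 bases). All lie in the fifth of tested genes with the longest annotated length, of which 10.8% were lower. Kcnq1ot1, the noncoding RNA that silences its cluster in cis, had 107 to 398 CPM in 1C (median 177) and 68.2 to 153 in 8CB (median 95.2), a fold change of -1.12 (standard error 0.36). Jade1, of a histone acetyltransferase complex, had 101 to 250 CPM in 1C (median 186) and 56.4 to 149 in 8CB (median 90.4), a fold change of -0.83 (standard error 0.32). Igf2r, the receptor that clears IGF2, had 219 to 584 CPM in 1C (median 277) and 98.7 to 377 in 8CB (median 163), a fold change of -0.69 (standard error 0.33) that ran from -0.97 to -0.44 with an embryo left out. Without 8CB replicate 2 the median of the list was 0.12. Of 21 ubiquitin-specific proteases 3 (14.3%) were lower, Usp10, Usp38 and Usp1, and 0 higher, against 4.85% and 2.69% of all tested genes. Their median was -0.22.

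**Figure D4:**
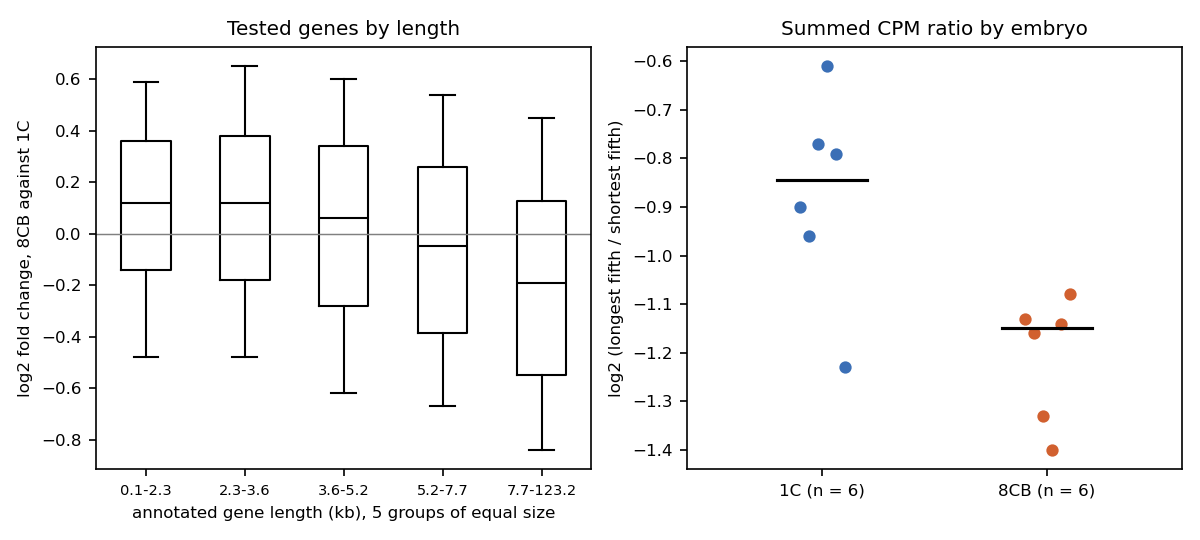
Left, log2 fold change of 4231 tested genes in 5 groups by annotated length in kb (box, quartiles and median; whiskers, 10th and 90th percentiles). Right, log2 ratio of summed CPM of the longest group to the shortest in each embryo, with the median of each stage as a bar: 8CB embryos lie from -1.40 to -1.08 and 5 of 6 1C embryos above them.

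Many of the lower genes have a long annotated length, and the fold changes of all tested genes moved with it. Annotated length is the deposited length of a gene in bases, which need not be that of its transcripts. In 5 groups by length, the median fold change was 0.12 in the shortest genes (108 to 2305 bases), then 0.12, 0.06 and -0.05, and -0.19 in the longest (7724 to 123179 bases). Leaving out any embryo kept the shortest group between 0.09 and 0.16 and the longest between -0.24 and -0.18. With Xist detection as a term the shortest group had 0.05 and the longest -0.12, and among only embryos with at least 10 Xist UMIs they had 0.06 and -0.10. Of 846 genes in the longest group 91 (10.8%) were lower and 14 (1.65%) higher, and of 848 in the shortest 19 (2.24%) and 28 (3.30%). The median length was 7018 bases for the 205 lower genes, 3425 for the 114 higher and 4300 for all tested genes.

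In each embryo the log2 ratio of summed CPM of the longest group to the shortest was -0.90, -0.96, -0.77, -0.61, -0.79 and -1.23 in 1C replicates 1 to 6 and -1.13, -1.16, -1.33, -1.40, -1.14 and -1.08 in 8CB replicates 1 to 6. Only 1C replicate 6 lay among the 8CB embryos. RNA quality is not given per embryo, and its part in this trend was not tested.

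With each embryo's own trend of gene levels on annotated length taken out as an offset, 122 genes were higher and 152 lower. Mdn1 (21836 bases) then had a fold change of -0.87, Kmt2c (20291 bases) -0.32, Dnmt3a (16642 bases) -0.48, Tet1 (15065 bases) -0.55 and Kcnq1ot1 (84395 bases) -0.57. R3hdm1 (31486 bases) had -0.45, Ep300 -1.04, Srrm2 -0.83, Etnk1 -1.41 and Ino80d -1.02, all nearer to 0 than without the offset. Shorter genes moved less: Creld2 (1364 bases) had 1.59 and Pdia6 (3745 bases) 1.55.

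**Figure D5:**
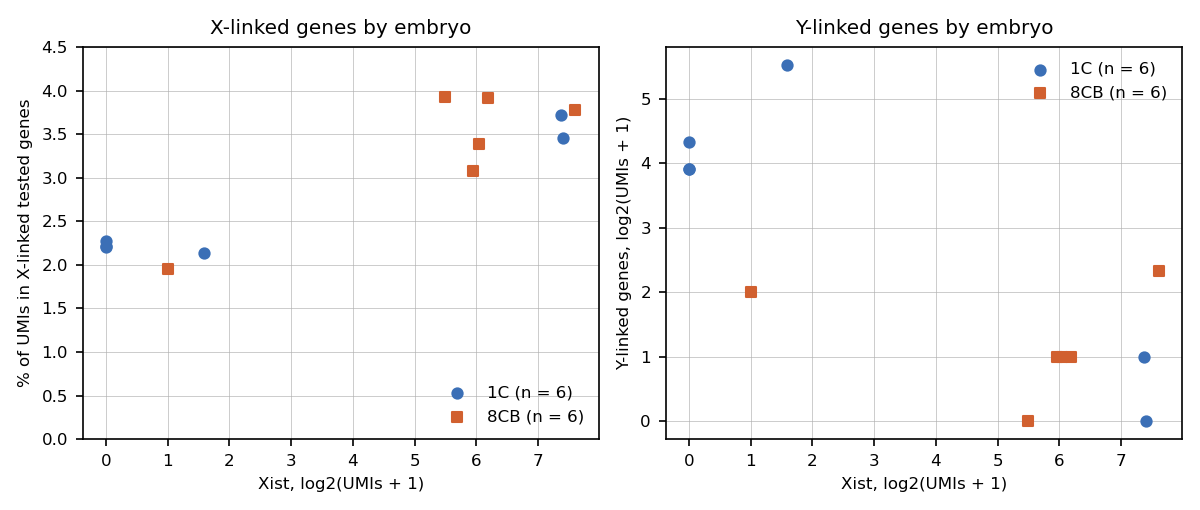
Percent of an embryo's UMIs in X-linked tested genes (left) and UMIs of 4 Y-linked genes as log2(UMIs + 1) (right), each against Xist as log2(UMIs + 1), for 6 1C (circles) and 6 8CB embryos (squares). The 2 1C and 5 8CB embryos with 44 or more Xist UMIs lie at 3.08 to 3.93% and the other 5 at 1.95 to 2.27%.

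The groups also differed in makeup by X-linked RNA. Xist, the RNA that coats and silences an X chromosome in female cells, had 0, 0, 169, 0, 2 and 165 UMIs in 1C replicates 1 to 6 and 61, 194, 65, 72, 44 and 1 in 8CB replicates 1 to 6. The Y-linked genes Ddx3y, Eif2s3y, Uty and Kdm5d together had 19, 14, 0, 14, 45 and 1 UMIs in 1C and 1, 4, 1, 1, 0 and 3 in 8CB. At least 10 Xist UMIs were thus found in 2 of 6 1C and 5 of 6 8CB embryos. Embryo sex is not in the labels, and stage and Xist detection are partly confounded here.

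X-linked tested genes took 2.13 to 3.72% of UMIs in 1C and 1.95 to 3.93% in 8CB embryos. Their median fold change was 0.27 over 120 genes, with 7 (5.83%) higher and 1 (0.833%) lower, against 0.01, 2.60% and 4.96% over the 4111 other genes. With Xist detection as a term in the fit the X-linked median was -0.02. With that term 112 genes were higher and 129 lower in place of 114 and 205, and edgeR again called 0.

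Single genes moved unequally with the term. Among lower genes Srrm1 had -0.19, Mob1a -0.21, Srsf11 -0.36, Tet1 -0.36, Dnmt3a -0.39, Imp4 -0.47, Nop58 -0.55, Gtf3c6 -0.65 and Cenpf -0.81. Among higher genes Phf5a had 0.26, Hdac2 0.44, Utp14a 0.46, Srm 0.80 and Sdf2l1 1.02. All of these were nearer to 0 by over a factor of 1.5, while Creld2 had 1.42, Pdia6 1.15, Asns 1.73 and Gars 0.81. The stress list then had a median of 0.20 with 2 of 21 higher, and the tRNA synthetases 0.25 with 5 of 18 higher. Among only the embryos with at least 10 Xist UMIs the stress list had a median of 0.43 with 4 of 21 higher, and the tRNA synthetases 0.25 with 0 higher. There Creld2 had 1.57, Pdia6 1.67, Asns 0.81 and Dnmt3a -0.18. Other genes described above as higher or lower that were nearer to 0 there by over a factor of 1.5 were Tpp2 (-0.94), Gtf3c6 (-0.61), Cenpf (-0.57), Rock2 (-0.55), Gnl2 (-0.51), Tet1 (-0.45), Kcnq1ot1 (-0.39), Srrm1 (-0.29), Mob1a (-0.25), Imp4 (-0.23) and Srsf11 (-0.21) among the lower. Among the higher they were Actr1a (0.56), Rrp9 (0.48), Dnmt3l (0.44), Mfap1b (0.39), Utp14a (0.23), Phf5a (0.22) and Trim28 (0.20). Further from 0 by the same factor were Usp1 (-1.51, from -0.99), Mat2a (-1.25, from -0.68) and Shmt2 (1.44, from 0.95), and Aldoa, neither higher nor lower, had 0.92.

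No tested lineage marker was higher or lower in 8CB embryos. Trophectoderm markers had a median of 0.12 over 10 tested genes, 9 of them above 0, epiblast and ICM markers 0.17 over 13, 8 above 0, and primitive endoderm markers 0.20 over 7, 5 above 0, each with 0 higher and 0 lower, where 51.3% of all tested genes lay above 0. Dab2 is counted in both the trophectoderm and the primitive endoderm lists, and Sox21, whose fold change equals the median of the primitive endoderm list, is counted there. The summed level of the trophectoderm list was 2188 to 7099 CPM in 1C (median 3055) and 3734 to 5795 in 8CB (median 5030.3), with overlap, and Ly6a took most of its UMIs. Nanog, the epiblast factor, had 82.3 to 735 CPM in 1C (median 337) and 145 to 1149 in 8CB (median 462), a fold change of 0.52 (standard error 0.48). Cdx2, the trophectoderm factor, had 2.89 to 40.7 CPM in 1C (median 28.3) and 5.61 to 42.6 in 8CB (median 9.23), on 35 and 17 UMIs, and was too scarce to test. Dab2, an endocytic adaptor of primitive endoderm, had 274 to 396 CPM in 1C (median 374) and 188 to 529 in 8CB (median 370), a fold change of 0.10 (standard error 0.26, and -0.04 to 0.23 with an embryo left out). Sox21, a marker of uneven fate among early blastomeres, had 48.5 to 119 CPM in 1C (median 93.5) and 0 to 423 in 8CB (median 71.8), with the highest and lowest values both in 8CB embryos (0.20, standard error 0.65, and -0.63 to 0.50 with an embryo left out), and Gm4675 on the opposite strand had 118 UMIs. Sox2, of the ICM, was found at 0 to 80.9 CPM in 1C and 0 to 168 in 8CB, and Gata4, of primitive endoderm, at 0 to 34.6 CPM in 1C and 0 to 13.1 in 8CB. Pou5f1 had 9 and 4 UMIs, Prdm14 0 and 1 and Carm1 1 and 2, too few to compare. Gata6 had a fold change of -0.07, standard error 0.26, Tfap2c of -0.10, standard error 0.29 and Klf5 of -0.05, standard error 0.36. With an embryo left out these 3 took both signs, and Nanog ran from 0.17 to 0.81. With Xist detection as a term Nanog had 0.09. Tbx3 had 850 to 1697 CPM in 1C (median 1516) and 1690.3 to 2340.0 in 8CB (median 1769), with 1C replicate 5 just inside the 8CB range and the other 1C embryos below it (0.42, standard error 0.21).

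Lists of blastocyst formation and signaling had few members higher or lower, where 2.69% of all tested genes were higher and 4.85% lower. Cavitation genes had a median of -0.23 over 5 tested genes, with 1 lower: Slc12a2, a sodium, potassium and chloride cotransporter, at 175 to 535 CPM in 1C and 127 to 333 in 8CB (-0.77, standard error 0.33). Tight and adherens junction genes had a median of 0.07 over 17 genes with 0 higher and 0 lower, and Hippo pathway genes -0.10 over 15 with 1 lower, Mob1a (-0.93, standard error 0.42). FGF, EGFR and ERK signaling had a median of -0.34 over 13 genes, 3 of them above 0, with 0 and 0, and was among the lists furthest below 0. Hras, a GTPase of that pathway, had 254 to 720 CPM in 1C and 136 to 493 in 8CB (-0.34, standard error 0.31), and ran from -0.46 to -0.12 with an embryo left out. Actin and myosin genes had a median of 0.01 over 32 genes, with Rock2 lower and S100a11 higher. S100a11, a calcium-binding partner of annexins, had 398 to 2112 CPM in 1C (median 915) and 1322 to 4321 in 8CB (median 2109.6), with overlap (1.15, standard error 0.35).

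Other housekeeping and stress groups had few members higher or lower, where 2.69% of all tested genes were higher and 4.85% lower. Proteasome subunits had 0.11 over 41 genes with 2 higher and 2 lower, autophagy 0.09 over 26 with 0 and 1, and heat shock chaperones 0.07 over 34 with 1 and 0. p53 targets and apoptosis regulators had 0.01 over 18 genes with 0 and 0. Cell cycle and DNA replication had -0.03 over 50 genes with 2 and 2. Among them Ccne1, cyclin E, had 274 to 476 CPM in 1C and 249 to 896 in 8CB (0.78, standard error 0.30), and Cenpf, of the kinetochore, 60.6 to 291 CPM in 1C and 25.6 to 112 in 8CB (-1.23, standard error 0.42). Translation factors had 0.02 over 46 with 3 (6.52%) and 2 (4.35%), and lysosomal genes 0.08 over 31 with 2 and 2 (6.45% each). Solute carriers had 0.20 over 17, 14 of them above 0, with 2 (11.8%) and 1 (5.88%). Cholesterol synthesis had -0.09 over 10, fatty acid metabolism -0.01 over 13 and basement membrane genes -0.04 over 10, each with 0 and 0. Genes of zygotic genome activation had 0.11 over 9 with 0 and 1, Nr5a2. Of 28 maternal oocyte transcripts only Khdc3, a member of the subcortical maternal complex, was tested, at 473 to 1248 CPM in 1C and 747 to 1592 in 8CB (0.58, standard error 0.27).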

How the data were processed

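The deposited values are whole-number UMI counts per gene and embryo, which the authors made from CEL-Seq2 reads aligned to GRCm38 with HISAT2 2.2.6 and counted with HTSeq 0.6.1. A consensus read was counted for each group of duplicates with the same UMI. The authors' normalized values and their DESeq2 1.10.1 results are not in the table. The annotation release is not given in the sources used here. Of 52366 genes, 51633 were given a symbol from GENCODE M21, and the deposited gene lengths were used as listed. A further 24 columns of other samples were not used. The largest count of a gene in these 12 embryos, 11230, exceeds the 4096 sequences of a 6-base UMI. Depth per embryo, 70941 to 368348 UMIs, limits genes of low level. Mitochondrially encoded genes are listed at 0.

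Only the 12 1C and 8CB embryos entered the fit: filterByExpr, TMM factors (0.956 to 1.06) and the quasi-likelihood F test of edgeR 4.0.16 (limma 3.58.1, R 4.3.3) with p adjusted by the Benjamini-Hochberg method and a threshold of 0.1. The common biological coefficient of variation was 0.435. Standard errors follow from the F statistic. Scripts were tested on simulated counts. Alternatives were DESeq2 1.42.0, other size factors, filters, thinning, a replicate block, all 24 embryos, robust dispersions and each embryo left out. Thinning on the genes tested at full depth, Xist detection as a term, only Xist-positive embryos and a length offset were added after seeing the data.

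Gene lists and their members were chosen with earlier results of these data known. Genes named are up to 10 each way with no overlap, a mean of at least 50 CPM and an unadjusted p below 0.05, lineage genes of the study, the 5 most abundant genes, sex-linked genes and, in each list described, the 2 most abundant and the 2 with the smallest p. Other genes were named after their values were seen. Some results are not reported here.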

Additional observations from a re-analysis of the deposited data

Results flagged for a closer look

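In 88 checks of 6 embryos for a value far from the others (Dixon's critical ratio of gap to range), 7 values stood apart, where about 1 in 20 checks does so by chance. Mlf2 was 1044.8 CPM in 8CB replicate 4 and 597 to 741 in the other 8CB embryos, so its separation from 1C does not rest on that embryo. Sox2 was 168 CPM in 8CB replicate 1 and at most 27.3 in the others. Sox21 was 423 CPM in 8CB replicate 6, the shallowest embryo, and at most 104 in the others. Hsp90ab1, the cytosolic chaperone, was 16562 CPM in 1C replicate 4 and 4424.5 to 8412 in the other 1C embryos. Isyna1, inositol phosphate synthase, was 14725 CPM in 1C replicate 6 and 4579.5 to 7739.8 in the others. Prdm14 in 8CB replicate 4, at 3.28 CPM, and Carm1 in 1C replicate 5, at 2.92 CPM, are single UMIs where the other embryos of the group had 0.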

How the results depend on the processing

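No gene was called by edgeR under the other size factors, a minimum of 5 UMIs in 6 embryos, robust dispersions, thinning, all 24 embryos, an adjusted p below 0.05 or the terms added after seeing the data. DESeq2 called 20, and edgeR without a filter called 59 of 17794 genes, 40 of them outside the main test and 23 with over 50% of their UMIs in 1 embryo. Leaving out each embryo gave 0 to 1 calls: Ptp4a1 without 1C replicate 3 and Fbln2 without 8CB replicate 6. At an unadjusted p below 0.05 stood 319 genes, 114 higher and 205 lower. These were 1934, 812 and 1122 without a filter, 550, 225 and 325 with all 24 embryos in the fit, and 115, 43 and 72 of 1454 genes after thinning. Leaving out each embryo gave 241 to 447, with 89 to 178 higher and 152 to 269 lower, the 178 without 8CB replicate 6. Lower genes numbered 129 with Xist detection as a term and 123 among embryos with at least 10 Xist UMIs, which used 7 embryos. Non-overlapping genes numbered 26, 42 without a filter, 6 of 1454 after thinning and 33 to 61 with an embryo left out, where smaller groups overlap less by construction.

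Replicate numbers did not pair the embryos: correlations of equal-numbered deviations ran from -0.220 to -0.0114. With the replicate block 0 genes were called and 216 were at an unadjusted p below 0.05, 81 higher and 135 lower.

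The difference in total UMIs ran from -15516 to 43994 and that in detected genes from -670.1 to 137.7 with an embryo left out. Of 706 values of 30 genes under other settings, 689 kept direction and call, 12 became calls and 5 reversed: Sox21, -0.93 among embryos with at least 10 Xist UMIs, -0.28 with the replicate block and from -0.63 (without 8CB replicate 6) to 0.50 with an embryo left out, and Dab2, -0.01 after thinning and from -0.04 (without 8CB replicate 3) to 0.23 with an embryo left out. Other genes described above changed sign as well and are not in this count. With an embryo left out these included Gata6 (-0.18 to 0.07), Klf5 (-0.44 to 0.32) and Hspa5 (-0.10 to 0.70). Medians of 36 lists moved by 1 SD between embryos or more in 17 of 864 cases, and 14 lists kept their sign throughout, the stress and tRNA synthetase lists among them. The cause of these moves was not tested.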

Other observations

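Some genes outside the lists differed widely among embryos of the same stage. Gm10800, a predicted gene on chromosome 2, had 9359 and 7816 CPM in 1C replicates 1 and 2, 35.0 to 850 in the other 1C embryos and 72.1 to 1040.5 in 8CB embryos (log2 fold change -3.09, standard error 0.96, edgeR adjusted p = 0.450). Gm21738 (22.9 to 546 CPM in 8CB and 78.7 to 4425 in 1C) and Gm10801 (0.0 to 76.8 and 0.0 to 830) had fold changes of -3.02 and -3.11. With Xist detection as a term Gm10800 had -1.34, Gm21738 -1.62 and Gm10801 -1.76, and among only embryos with at least 10 Xist UMIs -0.45, -0.73 and -1.26. Without a filter on low counts these 3 genes were called, and reads could have been divided among near-identical copies in counting. Hist1h1e, a linker histone of the replication-dependent cluster, had 23.3 to 128 CPM in 1C and 0.0 to 34.1 in 8CB (-2.23, standard error 0.55, edgeR adjusted p = 0.364); such genes also have near copies.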
